A study of Homo sapiens with 28 samples.

Results

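PC3 is a prostate cancer cell line that grows without androgen receptor signalling, and ONECUT2 is a transcription factor with a CUT domain and a homeodomain. To silence ONECUT2, the study transfected PC3 cells with either of 2 small interfering RNAs, called siRNA1 and siRNA2 here after their labels. Both are grouped as siOC2 in the labels. The comparison of these siRNAs rests on 4 of the 28 samples of the series: 1 siRNA1 and 1 siRNA2 library in normoxia, and 1 siRNA1 and 1 siRNA2 library in hypoxia at 0.2% oxygen. The members were chosen by label alone, as all RNA-Seq libraries of PC3 cells with an siRNA against ONECUT2. The 4 libraries of PC3 cells with a control siRNA (siCtrl), 2 at each oxygen level, served as the reference. The level of a gene is its RPKM, the read count that the authors normalised to gene length and mapped reads, after division by 1 scaling factor per library. Of 19662 genes, 12214 reached 1 RPKM in 2 or more of the 8 PC3 libraries and were tested.

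Small interfering RNAs are loaded into Argonaute proteins and guide them to cleave the mRNA that they match in full. A transfected siRNA can also lower other mRNAs, among them those whose 3′UTR matches the seed, a short stretch near the start of the guide strand. Studies therefore often use more than 1 siRNA against the same gene. The target sequences in the study's supplement overlap in part. Their letters were read from page images, are not printed here and were used for this remark only. If read correctly, both siRNAs target nearly the same site of the ONECUT2 mRNA and are not independent choices of site. Here each siRNA has a single library per oxygen level, so the siRNA cannot be told apart from that library's handling, and no library has a repeat with the same siRNA and the same oxygen level. The oxygen levels gave a first and a second look at the same pair of siRNAs.

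The relative depth, estimated from the steps between low RPKM, was 1.15 with siRNA1 and 0.877 with siRNA2 in normoxia, and 0.349 with siRNA1 and 0.883 with siRNA2 in hypoxia. The siCtrl libraries lay between 0.382 and 1. The siRNA1 library in hypoxia was thus the shallowest of all, while in normoxia the siRNA1 library was the deeper of its pair. Across the 12214 genes, the log2 levels of the siRNA2 libraries of both oxygen levels had a Pearson r of 0.972, next to 0.971 and 0.974 for the siCtrl duplicates of 1 oxygen level. It was 0.927 for the siRNA1 libraries of both oxygen levels. Between the siRNAs it was 0.919 in normoxia and 0.891 in hypoxia. Of the markers of an epithelial prostate line, 6 of 6 reached 1 RPKM in every library, and of the 8 markers of androgen-responsive LNCaP-type cells, 3 did. The endothelial markers with a row (CDH5 and VWF) and the immune markers PTPRC and CD3E stayed under 1 RPKM in all 8 libraries. The remaining immune marker, CD68, was at 25.9 to 57.2 RPKM across them. The summed deposited RPKM of the epithelial list moved with the siRNA, from 322 to 450 with siRNA1, from 546 to 801 with siRNA2 and from 760 to 1298 in siCtrl libraries. The members VIM and CD44 made up most of these sums. For the 6 fibroblast markers it was 4.91 to 8.14 with siRNA1, 3.09 to 3.98 with siRNA2 and 2.43 to 4.11 in siCtrl libraries. Of these markers, DCN and COL1A2 were at or near 0 throughout, and COL1A1 was at 2.03 to 4.74 in all libraries. LUM was at 1.12 and 1.34 with siRNA1 and at 0.334 to 0.434 in all other libraries. COL3A1 was at 2.06 in the siRNA1 library in hypoxia and at 0.0111 to 0.0842 elsewhere. The part of these shifts in the results was not tested.

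ONECUT2, the target of both siRNAs, fell to like levels with each. In normoxia it stood at 1.86 and 1.09 RPKM in the siCtrl libraries, 0.250 with siRNA1 and 0.188 with siRNA2. In hypoxia the values were 0.620 and 0.602 in the siCtrl libraries, 0.154 with siRNA1 and 0.192 with siRNA2. All siOC2 libraries lay below all siCtrl libraries, and the order of the siRNAs turned between oxygen levels. Averaged over both oxygen levels, the log2 change against siCtrl was -1.81 with siRNA1 and -1.85 with siRNA2 (limma, adjusted p = 0.014 for each). The difference between the siRNAs was 0.04 ± 0.46 (SE, adjusted p = 0.95), an error that leaves room for a sizeable difference at such low levels. The paralog ONECUT3 ran from 1.36 to 2.53 RPKM in siCtrl libraries, from 0.567 to 1.26 with siRNA1 and from 0.682 to 1.27 with siRNA2, a difference of -0.12 ± 0.29 between siRNAs (SE, adjusted p = 0.78). ONECUT1 was under 1 RPKM in every library and was not tested.

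Beyond the target, the siRNAs left the cells with different levels of many genes, in the same direction at both oxygen levels. A gene was called where the siRNAs differed by over 2-fold with an unadjusted p under 0.05 in a limma fit that averages the normoxic and the hypoxic pair. By this rule 800 genes were higher with siRNA1 (6.55% of the 12214 tested) and 1281 were higher with siRNA2 (10.5%), together 17.0%. With a Benjamini-Hochberg adjusted p under 0.05, 750 (6.14%) and 1146 (9.38%) passed. The split depends on the scale: on the RPKM as deposited, 526 genes were higher with siRNA1 and 1876 with siRNA2. On that scale the median of all genes was -0.26 (log2 siRNA1 minus siRNA2), against -0.05 after the scaling used here, so every difference below is relative to the typical gene. Of the genes higher with siRNA1, 554 of 800 had a mean of at least 5 RPKM, against 496 of 1281 of those higher with siRNA2. The siRNA2 side thus held more genes of low level.

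The differences recurred between oxygen levels for more genes than those of the siCtrl duplicates did. Over 2-fold in the same direction in both oxygen pairs were 489 genes higher with siRNA1 (4.0% of those tested) and 795 higher with siRNA2 (6.51%), and 58 went over 2-fold in opposite directions. Between the siCtrl duplicates, labelled replicates 1 and 2, the same count was 21 (0.172%) and 23 (0.188%), with 54 in opposite directions. The SD of the log2 difference over genes was 0.85 in normoxia and 1.05 in hypoxia between siRNAs, against 0.52 and 0.50 between the siCtrl duplicates. Across genes, which share their libraries and are not independent, the normoxic and the hypoxic siRNA difference had a Pearson r of 0.618. That of the siCtrl duplicates was -0.18. By the labels, the siCtrl numbers link nothing between oxygen levels, so the sign of this r is arbitrary. The shallower siCtrl library was number 1 in normoxia (relative depth 0.418) and number 2 in hypoxia (0.382). Leaving out the siRNA1 library in hypoxia, so that only the normoxic pair informs the difference, gave 749 and 1047 calls, of which 1374 were among the 2081 calls of all libraries. Leaving out the siRNA1 library in normoxia gave 1105 and 1724.

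**Figure D1:**
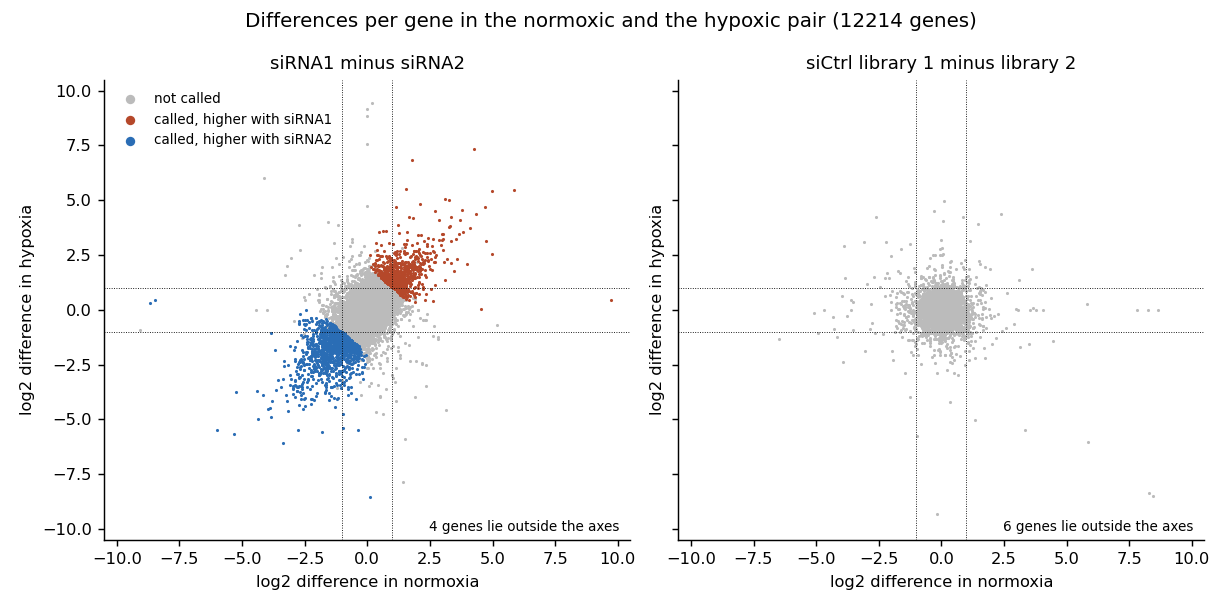
Log2 difference per gene in normoxia (x axis) and in hypoxia (y axis), on the left for siRNA1 minus siRNA2 with called genes in colour, on the right for siCtrl library 1 minus library 2. Each point is 1 of 12214 genes, dotted lines mark 2-fold, and 4 and 6 genes lie outside the axes. Points of the siRNA pairs stretch along the diagonal (Pearson r 0.618), and those of the siCtrl duplicates do not (r -0.18). The labels do not link the siCtrl numbers between oxygen levels.

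A feature of transcript sequence ran along this difference. Every word of 7 letters was searched on the transcript strand of the annotated 3′UTR of 11298 tested protein-coding genes, and 11263 words occurred in at least 500 of these 3′UTRs. For each word, the mean log2 difference of the genes that hold it was set against that of all other genes. The word GCAAGAA, held by 1365 3′UTRs (12.1%), stood lowest in the normoxic pair, at -0.30. The word GAACCAA, held by 1177 (10.4%), stood highest, at 0.33. The next in line overlapped them by 6 letters, AGCAAGA at -0.23 (17.0% of 3′UTRs) and AACCAAA at 0.19 (19.0%). The hypoxic pair, which was not used to choose them, gave -0.32 for GCAAGAA and 0.39 for GAACCAA, again the lowest and the highest of 11263 words. It gave -0.26 for AGCAAGA and 0.27 for AACCAAA, again second on either side. The SD over all words was 0.027 in normoxia and 0.033 in hypoxia.

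The siCtrl duplicates and the comparison of each siRNA with siCtrl place these shifts. Between siCtrl duplicates no word went beyond -0.07 or 0.07 in normoxia, or beyond -0.06 or 0.10 in hypoxia. Against siCtrl, the mean of genes with GCAAGAA minus that of other genes was -0.31 with siRNA1 and -0.002 with siRNA2. Genes with GAACCAA were at -0.008 with siRNA1 and at -0.37 with siRNA2. Each word thus went with lower levels under 1 siRNA and not under the other, with the same siCtrl libraries as reference for both. The siRNA sequences were not used in the word search, and a match between these words and a seed of either siRNA was not tested. The word analysis was added after the data were seen, and its values are a description.

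Holders with short 3′UTRs had larger mean shifts than those with long ones. For each word, the shift between the siRNAs grew with the number of copies at 1 oxygen level and not steadily at the other. For GCAAGAA the mean difference between siRNAs was -0.33, -0.39 and -0.35 in normoxia with 1, 2 and at least 3 copies, and -0.38, -0.46 and -0.62 in hypoxia. For GAACCAA it was 0.21, 0.28 and 0.33 in normoxia, and 0.24, 0.20 and 0.27 in hypoxia. With 1, 2 and at least 3 copies of GCAAGAA, the mean log2 change against siCtrl with siRNA1 was -0.28, -0.36 and -0.50 (1159, 166 and 40 genes), and 0.01 with no copy. Among 3′UTRs of up to 767 bases, holders averaged -0.54 in the normoxic pair (83 genes) and genes without it -0.008. Among 3′UTRs of over 2192 bases these values were -0.28 and -0.06. For GAACCAA the mean change against siCtrl with siRNA2 was -0.25, -0.31 and -0.66 with 1, 2 and at least 3 copies (1033, 123 and 21 genes), and 0.10 with none. With siRNA1 it was -0.02, -0.06 and -0.36, so the genes with at least 3 copies were lower with that siRNA too. Its holders with a 3′UTR of up to 767 bases averaged 0.54 in the normoxic pair (78 genes), those of over 2192 bases 0.13. A copy in the coding sequence without one in the 3′UTR went with smaller shifts, -0.15 for GCAAGAA (2370 genes) and 0.10 for GAACCAA (1136 genes). Of the genes with GCAAGAA, 20.3% were called higher with siRNA2, against 9.15% of those without. Of the genes with GAACCAA, 17.2% were called higher with siRNA1, against 5.32% of those without. Most called genes therefore hold neither word, and most holders were not called.

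Named genes that hold the words show where they lie. The following windows of 21 bases around the first copy, read 5′ to 3′ on the transcript strand from the GENCODE 3′UTR on GRCh37 (the build called hg19 by the authors), have GCAAGAA in capitals. All these genes were called higher with siRNA2.
RPS24, chr10:79800420-79800440, plus strand: atttttcGCAAGAAcattaat
VIM, chr10:17279299-17279319, plus strand: attaccaGCAAGAAtaaaaaa
RGS2, chr1:192780934-192780954, plus strand: acagaacGCAAGAAgggaata
OTUB2, chr14:94512359-94512379, plus strand: gactgtaGCAAGAAaatgtgc
CDH1, chr16:68869042-68869062, plus strand: cttaggaGCAAGAAgaaaatg
EGFR, chr7:55273532-55273552, plus strand: gcatccaGCAAGAAtattgtc

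The next windows have GAACCAA in capitals and come from genes called higher with siRNA1.
UGDH, chr4:39501664-39501684, minus strand: ggtaaatGAACCAAgtgtttt
DUSP1, chr5:172195327-172195347, minus strand: cctagaaGAACCAAatacctc
TGFBR2, chr3:30733514-30733534, plus strand: aactccaGAACCAAgcagaga
TAPBP, chr6:33267882-33267902, minus strand: ctccaatGAACCAAacgcctc
IFIT2, chr10:91068374-91068394, plus strand: ttggtgtGAACCAAaatagag
USP18, chr22:18660023-18660043, plus strand: actttgaGAACCAAcattaat
UGDH and IFIT2 hold 2 copies each. Among the named genes called higher with siRNA2, 15 of 40 with an annotated 3′UTR hold GCAAGAA and 1 holds GAACCAA. Among those called higher with siRNA1, 14 of 61 hold GAACCAA and 6 hold GCAAGAA. Of all 11298 genes with a 3′UTR, 12.1% hold GCAAGAA and 10.4% hold GAACCAA. Of all 1186 such genes called higher with siRNA2, 277 hold GCAAGAA. Of all 741 called higher with siRNA1, 203 hold GAACCAA. The named genes were picked in part for large differences in these data, so their counts are not a general rate. A match is a stretch of letters and not a measured binding site.

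The genes with the largest differences were taken by a rule that also asked for over 2-fold in each oxygen pair and for a difference above that of the siCtrl duplicates. On the siRNA1 side they include genes of contractile and secreted proteins. ACTG2, the smooth muscle gamma actin, was at 1.17 to 1.60 RPKM in the siCtrl libraries, at 21.1 and 21.3 with siRNA1 (normoxia and hypoxia) and at 0.263 and 0.389 with siRNA2. Its log2 difference between siRNAs was 5.66 ± 0.27 (SE, adjusted p = 0.0001). TAGLN, which encodes the actin-binding transgelin, was at 0.445 to 1.42 in siCtrl libraries, 28.0 and 41.5 with siRNA1, and 0.788 and 0.874 with siRNA2. Both genes rose with siRNA1 against siCtrl, and ACTG2 also fell with siRNA2 (log2 change -1.73, adjusted p = 0.0023). IL11, a cytokine of the IL6 family, was at 13.8 and 43.8 with siRNA1 and 1.51 and 1.23 with siRNA2, with siCtrl libraries at 2.90 to 4.63. GLIPR1 was at 264 and 402 with siRNA1, 26.4 and 28.4 with siRNA2, and 63.1 to 76.2 in siCtrl libraries. C15orf48 was at 89.4 and 105 with siRNA1, and 5.17 and 7.91 with siRNA2. In each of these genes the 4 siOC2 libraries split by siRNA with no overlap, a split that the rule for picking them favours.

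Among other genes of this side, UGDH, APOBEC3G and RP11-977G19.10 fell with siRNA2 and were not called against siCtrl with siRNA1, while PLAC8, NEDD4 and SAA1 fell with siRNA2 and rose with siRNA1. UGDH, the enzyme that makes UDP-glucuronic acid, was at 20.2 to 26.0 RPKM in siCtrl libraries, 28.2 and 44.9 with siRNA1, and 2.08 and 2.53 with siRNA2. Its change against siCtrl with siRNA2 was -3.22 on the log2 scale (adjusted p = 6.9e-05). APOBEC3G, an antiviral cytidine deaminase, was at 14.6 to 22.1 in siCtrl libraries, 21.3 and 18.0 with siRNA1, and 1.42 and 1.45 with siRNA2. RP11-977G19.10 was at 0.331 and 0.268 with siRNA2, and at 5.47 to 13.9 in all other libraries. The siRNA1 libraries of APOBEC3G and RP11-977G19.10 lay within or close to the siCtrl range. PLAC8 was at 1.08 and 1.25 with siRNA2, at 10.3 to 12.2 in siCtrl libraries and at 16 and 31.8 with siRNA1. NEDD4, a ubiquitin ligase, was at 2.34 and 4.03 with siRNA2 and at 24.4 and 78.6 with siRNA1, on either side of the siCtrl libraries at the same oxygen level. SAA1, an acute-phase protein with the near-identical copy SAA2, was at 1.08 to 1.5 in siCtrl libraries, 9.04 and 6.83 with siRNA1, and 0.240 and 0.699 with siRNA2. ARHGAP9 was at 48.6 in the siRNA1 library in hypoxia and at 1.30 in normoxia, so its difference of 4.31 ± 1.04 (SE) rests on the hypoxic library. ARHGAP9 rose with siRNA1 and was not below siCtrl with siRNA2 (log2 change 5.38 and 1.07). Without that library ARHGAP9 was no longer called.

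On the siRNA2 side, several genes of low level in siCtrl libraries were higher with siRNA2 by over 10-fold. FABP4, a fatty acid-binding protein, was at 1.99 to 3.66 RPKM in siCtrl libraries, 8.19 and 6.63 with siRNA1, and 123 and 150.5 with siRNA2. Its difference was -4.19 ± 0.23 (SE, adjusted p = 0.00014). IL37, an IL-1 family cytokine, was at 0.413 to 0.985 in siCtrl libraries, 0.482 and 1.35 with siRNA1, and 21.9 and 19.6 with siRNA2. IL1RL1, the receptor of IL-33, was at 149 and 121 with siRNA2, 10.4 and 3.95 with siRNA1, and 15.5 to 23.9 in siCtrl libraries. These genes rose with siRNA2. With siRNA1, FABP4 also rose (log2 change 1.28, adjusted p = 0.0043) and IL1RL1 fell (log2 change -1.57, adjusted p = 0.0021). RGS2, a regulator of G protein signalling, was at 30.0 and 39.4 with siRNA2, 4.01 and 2.39 with siRNA1, and 5.80 to 7.11 in siCtrl libraries. DHRS2 was at 12.6 and 8.43 with siRNA2 and SAMD5 at 11.9 and 15.5. Both genes stayed under 1.5 RPKM in all other libraries. LY6K was at 6.83 and 6.60 with siRNA2 and under 0.6 elsewhere. CREG2, VSIG1 and PLA2G7 lay above the siCtrl libraries with siRNA2 and below them with siRNA1 at each oxygen level, with differences of -3.50 ± 0.17, -4.26 ± 0.41 and -3.35 ± 0.36 (SE).

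RPS24 and OTUB2 differed because siRNA1 lay below siCtrl. RPS24, a protein of the small ribosomal subunit, was at 5944 to 7837 RPKM in siCtrl libraries, 6973 and 7571 with siRNA2, and 888 and 524 with siRNA1. Its change against siCtrl was -3.30 with siRNA1 (adjusted p = 0.00016) and 0.11 with siRNA2 (adjusted p = 0.65). OTUB2, a deubiquitinase, was at 11.7 to 12.9 in siCtrl libraries, 14.6 and 11.9 with siRNA2, and 1.47 and 0.578 with siRNA1. The siRNA2 libraries of both genes lay close to the siCtrl range. Processed pseudogenes can share reads with RPS24, so its level carries the uncertainty of the authors' counting.

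**Figure D2:**
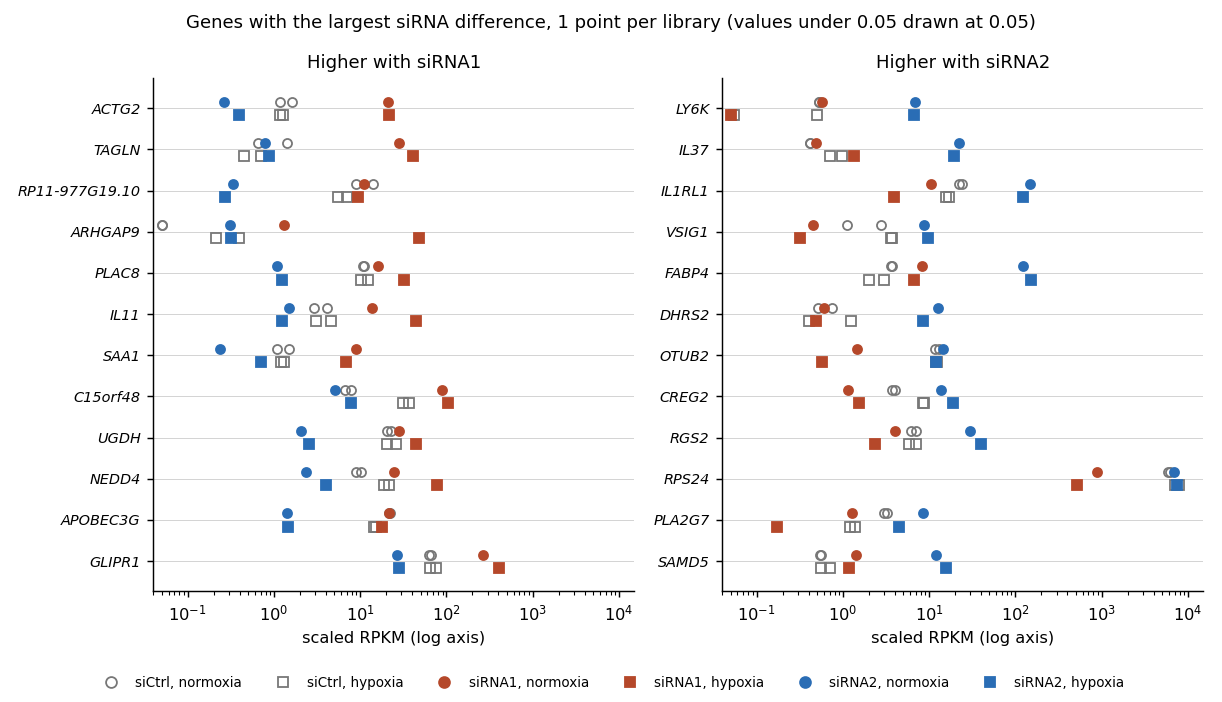
RPKM after scaling (log axis) of the 12 genes with the largest difference in each direction, with 1 point per library. Grey open points are siCtrl, red siRNA1 and blue siRNA2, with circles for normoxia and squares for hypoxia. Red and blue points separate in every gene, as the rule for picking the genes favours. Grey points lie near the blue ones in TAGLN and RPS24 and near the red ones in APOBEC3G and IL37.

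The genes of 32 lists were then described by their counts. Of the HIF targets, which hypoxia induces through HIF1 and HIF2, 9 of 32 tested were called higher with siRNA1 (6.55% of all genes) and none higher with siRNA2. With an unadjusted p under 0.05 whatever the fold, 18 were higher with siRNA1 and 2 with siRNA2 in the limma fit. Of all 12214 genes, 2451 and 2935 passed this looser rule. The median difference of the list was 0.65 in normoxia and 0.44 in hypoxia, against -0.04 and -0.05 for all genes, and 0.06 and 0.01 between siCtrl duplicates. VEGFA, the angiogenic ligand, was at 145 and 159.9 RPKM in the siCtrl libraries in normoxia, 90.8 with siRNA1 and 21.4 with siRNA2. In hypoxia VEGFA was at 228 and 224, 116 and 49.8. P4HA2, a collagen prolyl hydroxylase subunit, was at 72.2 and 72.5 in siCtrl libraries, 71.7 with siRNA1 and 21.6 with siRNA2 in normoxia, and at 157, 148, 116 and 28.9 in hypoxia. Both fell with siRNA2 (log2 change against siCtrl -2.5 and -2.07). P4HA2 holds GCAAGAA and GAACCAA once each. NDRG1, a stress-induced gene, was at 385 with siRNA1 and 65.1 with siRNA2 in normoxia, and 3013 and 1575 in hypoxia, with siCtrl libraries at 181 to 185 and 3551 to 3680.1. DDIT4, an mTORC1 inhibitor, was at 29.2 and 41.5 with siRNA1 and 6.26 and 18.3 with siRNA2. For NDRG1 the difference between siRNAs was smaller in hypoxia (0.94) than in normoxia (2.56), and without the siRNA1 library in normoxia it was no longer called.

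Glycolysis genes followed with 3 of 19 called higher with siRNA1 and none with siRNA2, against 6.55% and 10.5% of all genes. At an unadjusted p under 0.05 whatever the fold, these counts were 9 and 1, against 2451 and 2935 of all 12214 genes. The median difference was 0.58 in normoxia and 0.27 in hypoxia. LDHA, which makes lactate from pyruvate, was at 1071 with siRNA1 and 423 with siRNA2 in normoxia, and at 2989.9 and 1788 in hypoxia. SLC16A3, the lactate exporter MCT4, was at 16 and 4.12 in normoxia, and 28.0 and 16.7 in hypoxia. The siCtrl libraries of LDHA lay between the siRNAs at either oxygen level. HK1, a hexokinase, was at 4.61 and 17.0 with siRNA1 and 3.05 and 4.25 with siRNA2. The calls of LDHA and SLC16A3 were lost without the siRNA1 library in normoxia and that of HK1 without the siRNA1 library in hypoxia, and LDHA was not called on the deposited scale.

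TGF-β ligands bind type II and type I receptors that phosphorylate SMAD2 and SMAD3, and BMP signals through SMAD1 and SMAD5 raise the ID genes. Of 28 tested genes of this pathway, 6 were called higher with siRNA1 and 1 (ID2) higher with siRNA2, against 6.55% and 10.5% of all genes. The list median was 0.12 in normoxia and 0.80 in hypoxia. The receptor TGFBR2 was at 39.8 to 48.5 RPKM in siCtrl libraries, 34.6 and 35.1 with siRNA1, and 8.88 and 9.52 with siRNA2. The receptor TGFBR1 was at 24.7 to 27.7, 39.8 and 33.0, and 9.52 and 11.6. Both receptors fell with siRNA2 (log2 change against siCtrl -2.23 and -1.28), and TGFBR3 was called in the same direction. Of the targets, ID1 was at 104 and 174 with siRNA1 and 36.6 and 42.3 with siRNA2, and ID3 was at 78.5 and 51.1 and at 12.2 and 8.22. ID3 rose with siRNA1 and fell with siRNA2 (log2 change 1.47 and -1.18), while ID1 fell with siRNA2 and was close to siCtrl with siRNA1. SMAD3 was at 62.9 to 84.5 in siCtrl libraries, 55.4 and 51.9 with siRNA1, and 35.7 and 34.9 with siRNA2. Its difference of 0.60 ± 0.12 (SE, adjusted p = 0.0093) was under 2-fold and not called, and its fall against siCtrl was called with siRNA2 only (-1.06, against -0.46 with siRNA1). The 3′UTR of SMAD3 holds 3 copies of GAACCAA and 1 copy of GCAAGAA, whose part in its level was not tested.

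**Figure D3:**
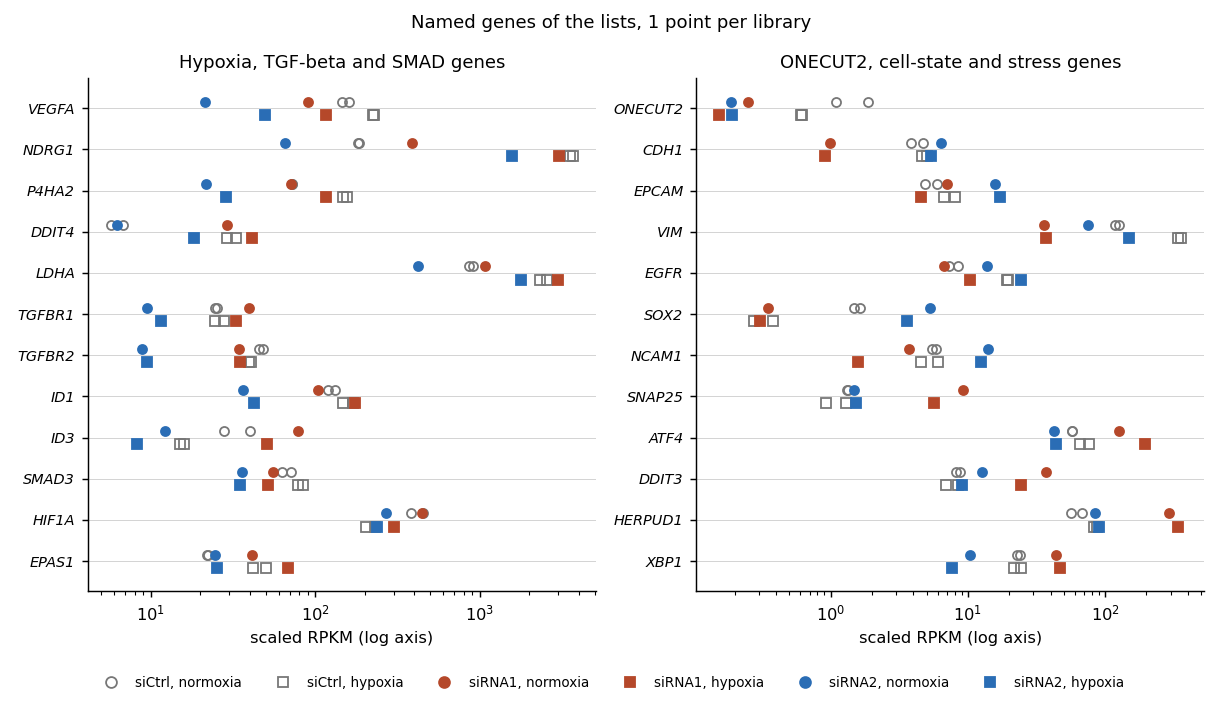
RPKM after scaling (log axis) of named genes of the lists, 1 point per library, with grey open points for siCtrl, red for siRNA1 and blue for siRNA2, circles for normoxia and squares for hypoxia. The red and blue points of ONECUT2 overlap below the grey ones, whereas the siRNAs separate for TGFBR2 (34.6 and 35.1 against 8.88 and 9.52) and CDH1 (0.987 and 0.910 against 6.31 and 5.34).

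Interferon-stimulated genes, the antiviral response that RNA sensors can switch on, had 13 of 36 tested members called higher with siRNA1 and 2 (SAMD9 and SAMD9L) higher with siRNA2, against 6.55% and 10.5% of all genes. The list median was 0.61 in normoxia and 0.89 in hypoxia, and -0.04 and -0.002 between the siCtrl duplicates. Against siCtrl, 12 of the 36 were called above with siRNA1 (5.28% of all genes) and none below. With siRNA2, 1 was called above and 5 below (7.14% and 5.41% of all genes). OAS2, which makes 2-5A to activate RNase L, was at 2.42 to 4.59 RPKM in siCtrl libraries, 13.3 and 13.8 with siRNA1, and 3.59 and 3.53 with siRNA2. IFI27 was at 8.63 and 3.99 with siRNA1, 1.22 and 0.798 with siRNA2, and 1.20 to 2.4 in siCtrl libraries. These genes rose with siRNA1. IFIT2, a holder of 2 copies of GAACCAA, was at 2.45 and 2.41 with siRNA1, 0.924 and 0.480 with siRNA2, and 2.73 to 3.69 in siCtrl libraries. USP18, a holder of 1 copy, was at 1.91 and 1.46, 0.438 and 0.308, and 0.755 to 1.88. IFIT2 and USP18 fell with siRNA2. Levels were low for the named members of this group, from 0.308 to 13.8 RPKM across the libraries. Of the MHC class I genes, TAPBP was the only 1 called of 15, at 19.7 and 36.1 with siRNA1 and 5.46 and 6.07 with siRNA2.

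In the integrated stress response, ATF4 drives genes of amino acid supply and, with DDIT3, of cell death. Of 22 genes of this list, 3 were called higher with siRNA1 and none with siRNA2, against 6.55% and 10.5% of all genes. At an unadjusted p under 0.05 whatever the fold, these counts were 10 and 3, against 2451 and 2935 of all 12214 genes. ATF4 was at 57.1 to 76.1 RPKM in siCtrl libraries, 125 and 195 with siRNA1, and 42.6 and 43.5 with siRNA2. DDIT3 (CHOP) was at 37.4 and 24.4 with siRNA1, 12.6 and 9.07 with siRNA2, and 6.87 to 8.72 in siCtrl libraries. CHAC1, a glutathione-degrading target of this pathway, was at 12.2 and 12.6, 6.15 and 4.50, and 0.487 to 1.16. CHAC1 thus rose with both siRNAs, and more with siRNA1. Against siCtrl, 9 genes of the list were called above with siRNA1 and 9 with siRNA2 (5.28% and 7.14% of all genes). Of 20 chaperone and unfolded protein response genes, 2 were called, HERPUD1 and XBP1. HERPUD1, of endoplasmic reticulum-associated degradation, was at 294 and 342 with siRNA1 and 84.9 and 89.6 with siRNA2, with siCtrl libraries at 56.0 to 87.1. XBP1, a transcription factor of this response, was at 44.1 and 46.5 and at 10.4 and 7.68, on either side of siCtrl libraries at 21.7 to 24.4. At an unadjusted p under 0.05 whatever the fold, 13 of the 20 were higher with siRNA1 and 2 with siRNA2. Of all 12214 genes, 2451 and 2935 were.

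Genes that mark epithelial and mesenchymal states did not split along that line. CDH1, the epithelial cadherin, was at 3.82 to 5.05 RPKM in siCtrl libraries, 0.987 and 0.910 with siRNA1, and 6.31 and 5.34 with siRNA2. VIM, the mesenchymal filament vimentin, was at 35.8 with siRNA1 and 75.2 with siRNA2 in normoxia and 37.1 and 148 in hypoxia, below siCtrl libraries at 118 to 126 and 337 to 359. CDH1 and VIM, which mark opposite states, were both called lower with siRNA1 than with siRNA2. The epithelial EPCAM (7.05 and 4.54 with siRNA1, 15.7 and 17.0 with siRNA2) and CLDN4 (5.68 and 10.1, 15.4 and 19.0) were higher with siRNA2 too, and ZEB2 was called higher with siRNA1. In all, 4 of 22 genes were called higher with siRNA2 and 1 with siRNA1, close to the 10.5% and 6.55% of all genes on counts this small. Among 10 keratins, KRT81 (423 and 245 with siRNA1, 78.6 and 52.7 with siRNA2) and its near-identical neighbour KRT86 (36.0 and 25.2, 6.74 and 4.65) were higher with siRNA1. KRT15 was higher with siRNA2 (3.20 and 2.49, 11.8 and 13.6). Reads of KRT81 and KRT86 may have been shared between them.

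Adhesion and matrix genes had calls on both sides. Of 22 integrin and laminin genes, 4 were called higher with siRNA1 and 6 higher with siRNA2, against 6.55% and 10.5% of all genes. ITGA1, a collagen receptor subunit, was at 9.99 and 17.2 RPKM with siRNA1 and 3.56 and 2.76 with siRNA2, and LAMA3, a laminin-332 chain, at 54.4 and 84.8 and at 13.8 and 29.6. LAMA4 ran the other way, at 8.09 and 12.9 with siRNA1 and 36.4 and 41.4 with siRNA2, with siCtrl libraries at 12.5 to 20.2. ITGA10 was at 5.77 in the siRNA1 library in hypoxia and at 0.381 to 1.17 elsewhere, and its call was lost without that library. Of 13 matrix protease and inhibitor genes, 3 were higher with siRNA1 and 2 with siRNA2, small counts beside the same 6.55% and 10.5%. PLAT, the tissue plasminogen activator, was at 35.9 and 121 with siRNA1 and 12.7 and 16.3 with siRNA2. MMP9, a gelatinase, was at 2.02 and 3.28 and at 6.80 and 13.5, and its inhibitor family member TIMP2 at 10.3 and 9.44 and at 24.6 and 26.7. TIMP3 was called on the unadjusted p (adjusted p = 0.092), at 23.0 and 3.93 in hypoxia and 4.69 and 4.40 in normoxia.

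Cytokine and NF-κB target genes had calls on either side, 5 of 25 higher with siRNA1 and 8 higher with siRNA2. Of all genes, 6.55% and 10.5% were called in these directions. On the siRNA1 side were IL6, IL11, IL32, NFKB1 and the inhibitor NFKBIA. On the siRNA2 side were the chemokines CXCL1, CXCL5, CXCL6 and CCL20, with IL1A, IL24, CSF2 and TNFAIP3. CXCL6 was at 7.88 to 13.0 RPKM in siCtrl libraries, 10.3 and 4.54 with siRNA1, and 28.1 and 29.2 with siRNA2. IL24 was at 0.323 to 0.481, 2.36 and 0.416, and 12.1 and 6.21. CXCL6 rose with siRNA2, and IL24 rose with both siRNAs (log2 change 1.26 with siRNA1 and 4.22 with siRNA2). CXCL5 stayed at 1.22 or lower and is listed at 0 in the siRNA1 library in hypoxia. Of the immediate early genes, DUSP1, a phosphatase of MAP kinases, was at 35.4 and 60.8 with siRNA1 and 4.29 and 5.46 with siRNA2, on either side of siCtrl libraries at 6.32 to 6.39 in normoxia and 25.9 to 26.5 in hypoxia. MYC was at 30.3 and 17.8 with siRNA1 and 46.0 and 57.5 with siRNA2. MYC fell with siRNA1 (log2 change -1.19, adjusted p = 0.0059), and siRNA2 lay near the siCtrl libraries.

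Growth factor genes were few and mixed. FGF1, a fibroblast growth factor, was at 14.7 and 13.4 RPKM with siRNA1, 1.84 and 1.62 with siRNA2, and 0.415 to 4.54 in siCtrl libraries. FGF2 was at 2.18 and 1.54, 4.69 and 3.76, and 0.767 to 1.89, and FGF11 was higher with siRNA2 as well. Against siCtrl, FGF1 rose with siRNA1 and FGF2 rose with siRNA2. Of the ERBB receptors, EGFR was at 6.70 and 10.4 with siRNA1 and 13.7 and 24.5 with siRNA2, and ERBB2 at 9.51 and 12.1 and at 4.95 and 5.62. The call of ERBB2 rested on a fold close to 2 (log2 difference 1.01 ± 0.24, SE). In the WNT pathway, 2 of 23 genes were higher with siRNA1 and 3 with siRNA2, close to the 6.55% and 10.5% of all genes. The secreted inhibitor DKK1 was at 148 and 140.4 with siRNA1 and 75.5 and 61.1 with siRNA2, and the receptor FZD6 at 23.4 and 16 and at 7.6 and 8.17, with siCtrl libraries at 39.1 to 47.0. The feedback gene AXIN2 was at 0.632 and 1.21 and at 2.85 and 2.28.

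Neuroendocrine genes, of which 8 of 22 passed the level filter, had 2 calls on each side. Of all genes, 6.55% were called higher with siRNA1 and 10.5% higher with siRNA2. SOX2, a stem cell factor, was at 0.348 and 0.303 RPKM with siRNA1, 5.24 and 3.60 with siRNA2, and 0.277 to 1.64 in siCtrl libraries. NCAM1, the adhesion molecule CD56, was at 3.72 and 1.59, 14.0 and 12.5, and 4.55 to 6.07. SOX2 and NCAM1 rose with siRNA2, and NCAM1 fell with siRNA1 (log2 change -1.12, beside 1.27 with siRNA2). SNAP25, of synaptic vesicle fusion, was at 9.26 and 5.63 with siRNA1 and 1.48 and 1.53 with siRNA2, with siCtrl libraries at 0.922 to 1.34. SCG5, a chaperone of prohormone convertase 2, was at 4.54 and 2.95 and at 0.987 and 0.433. SNAP25 and SCG5 rose with siRNA1.

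Some cell cycle genes were below siCtrl with either siRNA, and few were called between the siRNAs. Of 54 G2/M genes, 2 were called higher with siRNA1 and 3 with siRNA2, against 6.55% and 10.5% of all genes. Against siCtrl, 17 of the 54 were called below with siRNA1 and 13 with siRNA2 (7.56% and 5.41% of all genes), with list medians of -0.70 and -0.77. CENPF, a kinetochore protein, was at 17.9 to 23.6 RPKM in siCtrl libraries, 4.37 and 3.88 with siRNA1, and 14.7 and 10.6 with siRNA2. GAS2L3 was at 3.65 and 1.86 with siRNA1, 10.9 and 11 with siRNA2, and 9.13 to 15 in siCtrl libraries. CKS1B, a cyclin-dependent kinase subunit, ran the other way, at 78.0 and 99.4 with siRNA1 and 36.2 and 37.8 with siRNA2. Among 40 S phase genes the helicase BRIP1 (28.7 and 35.7, 10.4 and 10.9) and the replication licensing gene MCM6 (5.52 and 3.84, 1.39 and 2.55) were higher with siRNA1. None was called higher with siRNA2. At an unadjusted p under 0.05 whatever the fold, 8 of the 40 were higher with siRNA1 and 5 with siRNA2. Of all 12214 genes, 2451 and 2935 were. Of 17 histone genes, 14 were called below siCtrl with siRNA1 and 12 with siRNA2 (7.56% and 5.41% of all genes). Between the siRNAs, 1 was called higher with siRNA1 and 1 higher with siRNA2, against 6.55% and 10.5% of all genes. HIST1H3D was at 123 to 183 in siCtrl libraries, 60.1 and 33.5 with siRNA1, and 17.9 and 18.9 with siRNA2.

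Ribosomal and respiratory chain genes had few calls between the siRNAs. Of 79 cytosolic ribosomal protein genes, only RPS24 and RPS12 were called between the siRNAs. RPS12 was at 182 to 211 RPKM in siCtrl libraries, 202 and 215 with siRNA2, and 88.8 and 89.1 with siRNA1. Of 76 nuclear-encoded respiratory chain genes, 3 were called higher with siRNA1 and 1 higher with siRNA2, against 6.55% and 10.5% of all genes. UQCRB, of complex III, was at 195 and 201 with siRNA1 and 79.9 and 85.2 with siRNA2, and NDUFB5, of complex I, at 103 and 61.1 and at 35.0 and 30.4. ATP5C1, the gamma subunit of ATP synthase, ran the other way, at 75.4 and 52.7 with siRNA1 and 147 and 178 with siRNA2, with siCtrl libraries at 175 to 224. RPS12 and ATP5C1 fell with siRNA1, UQCRB and NDUFB5 with siRNA2.

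The remaining lists had few or no calls. Of the RNA interference machinery, AGO1 (1.42 and 1.93 RPKM with siRNA1, 3.68 and 4.14 with siRNA2) and the exporter XPO5 (16.5 and 13.7, 29.8 and 32.2) were higher with siRNA2, 2 of 13 tested. For all genes the shares called were 10.5% higher with siRNA2 and 6.55% higher with siRNA1. Of 21 NRF2 targets, 3 were called higher with siRNA1 and 1 (AKR1B10) higher with siRNA2. Against siCtrl, 5 of the 21 were called above with siRNA2 and 2 below (7.14% and 5.41% of all genes). The ferritin light chain FTL was at 605 and 621 with siRNA1 and 277 and 197 with siRNA2, and GCLM, of glutathione synthesis, at 19.1 and 33.9 and at 8.49 and 8.74. FTL and GCLM were the 2 below siCtrl with siRNA2. Among p53 targets, MDM2, the ubiquitin ligase of p53, was at 38.2 and 58.1 and at 14.5 and 20.3, and the cyclin CCNG1 at 30.2 and 58.0 and at 14.6 and 18.2. In cholesterol synthesis and uptake, the carrier STARD4 (25.7 and 42.4, 9.99 and 17.7) was higher with siRNA1 and the enzyme HMGCS1 (20.6 and 16, 41.9 and 32.8) higher with siRNA2, so this group had no common direction. The metallothionein MT2A was at 3356 and 1224 with siRNA1 and 955 and 726 with siRNA2, and the autophagy gene WIPI1 at 34.3 and 25.6 and at 9.69 and 7.03. None of 13 heat shock and 13 mitochondrially encoded genes was called in limma. At an unadjusted p under 0.05 whatever the fold, 5 of the first were higher with siRNA2 and 4 of the second higher with siRNA1. Of all 12214 genes, 2935 were higher with siRNA2 and 2451 with siRNA1 by this looser rule.

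**Figure D4:**
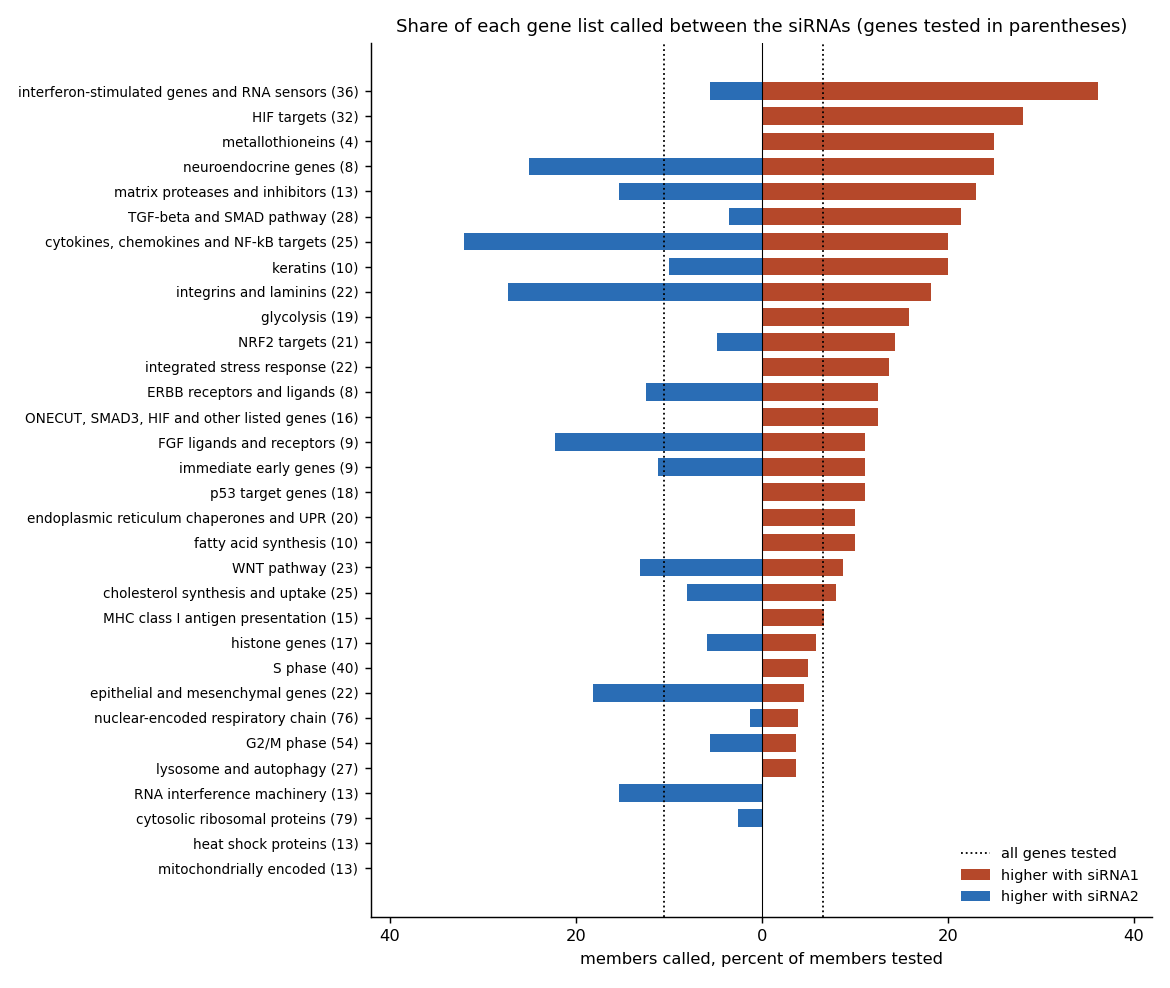
Share of the tested members of each list that were called higher with siRNA1 (red, to the right) or higher with siRNA2 (blue, to the left), in percent, with the number tested in parentheses. Dotted lines give the shares of all genes tested, 6.55% and 10.5%. Interferon-stimulated genes (13 of 36) and HIF targets (9 of 32) reach farthest on the siRNA1 side, cytokines and NF-κB targets (8 of 25) on the siRNA2 side.

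Of 17 listed genes, which hold the ONECUT family, SMAD3, HIF genes and other genes of interest, 16 were tested, and UCN2 and PDGFA fell against siCtrl with both siRNAs. UCN2, the ligand urocortin 2, was at 26.0 and 26.4 RPKM in the siCtrl libraries in hypoxia, 1.06 with siRNA1 and 1.88 with siRNA2. In normoxia it was at 3.56 and 3.97, 0.354 and 0.726. Its log2 change against siCtrl was -3.80 with siRNA1 and -2.98 with siRNA2, and the difference of -0.82 ± 0.20 (SE, adjusted p = 0.022) was under 2-fold. PDGFA, a growth factor ligand, was at 6.10 and 6.38 in siCtrl libraries in hypoxia, 0.75 with siRNA1 and 1.08 with siRNA2 (difference over both oxygen levels 0.05 ± 0.30, SE, adjusted p = 0.92). SLAMF9 was at 44.1 and 56.3 in siCtrl libraries in hypoxia, 10.6 and 11 with the siRNAs, and ANGPTL4, a lipoprotein lipase inhibitor, at 194 and 209.9, 30.9 and 41.9. In these 4 genes both siOC2 libraries in hypoxia lay below both siCtrl libraries. Averaged over oxygen levels, the change of SLAMF9 passed with neither siRNA (log2 -0.45 and -0.44) and that of ANGPTL4 with siRNA1 only (-1.23, against -0.75). HIF1A was at 449 and 302 with siRNA1 and 268 and 238 with siRNA2 (0.54 ± 0.14, SE, under 2-fold), and EPAS1, which encodes HIF2α, at 41.4 and 68.4 and at 24.6 and 25.2 (1.09 ± 0.18, SE, called). CA9, a carbonic anhydrase, was at 37.4 and 23.0 in hypoxia with siRNA1 and siRNA2, with siCtrl libraries at 47.8 and 49.4. It was called on the unadjusted p (adjusted p = 0.07). KLF6, BHLHE40 and ADM were higher with siRNA1 at both oxygen levels by under 2-fold on average. CXCR4, ARRDC3 and GDNF changed order between oxygen levels.

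The siCtrl libraries, which are the reference for both siRNAs and so are shared, place the called genes. Of the 800 genes higher with siRNA1, 197 were over 2-fold above siCtrl with siRNA1 and within 2-fold with siRNA2, and 264 were over 2-fold below siCtrl with siRNA2 and within 2-fold with siRNA1. A further 28 were over 2-fold apart from siCtrl on opposite sides, ACTG2, GLIPR1, ID3 and DUSP1 among them, and 283 were within 2-fold with both. Of the 1281 genes higher with siRNA2, 445 were below siCtrl with siRNA1, 375 above siCtrl with siRNA2, 56 on opposite sides and 362 within 2-fold with both. By its own test against siCtrl, siRNA1 had 645 genes called above (5.28%) and 923 below (7.56%), and siRNA2 had 872 above (7.14%) and 661 below (5.41%). With an adjusted p under 0.05 these shares were 4.83% and 7.15% with siRNA1, and 6.43% and 5.14% with siRNA2.

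Whether the difference between siRNAs itself depends on oxygen was tested in a fit with 6 groups, where each siRNA group is 1 library that is assumed to vary like the siCtrl duplicates. By fold and unadjusted p, 458 genes had a larger siRNA1-over-siRNA2 difference in hypoxia (3.75%) and 614 a smaller one (5.03%). On the RPKM as deposited these counts were 156 and 1913, so the split depends on the scale. With an adjusted p under 0.05 these were 2 (0.0164%) and 3 (0.0246%), 0.0409% together. Of the 1072 called genes (8.78%), 570 had pairs of opposite sign and 335 were also called between the siRNAs. The siCtrl duplicates of some of these genes lay far apart. HAGHL was at 2.1 and 18.8 RPKM in the siCtrl libraries in normoxia and 12 and 1.33 in hypoxia, and at 107 with siRNA1 in hypoxia. RERG, a small GTPase, had close duplicates (1.01 and 0.988, 0.299 and 0.189) and was at 13.5 with siRNA1 in hypoxia, against 0.476 in normoxia and 1.60 and 0.75 with siRNA2. The genes called between the siRNAs went in the same direction in both oxygen pairs on the siRNA1 side (800 of 800), and 1278 of 1281 did on the siRNA2 side, a direction that a call on the average of both pairs favours.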

How the data were processed

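RNA-Seq of 8 PC3 libraries was analysed (4 siCtrl, 2 siRNA1, 2 siRNA2, from the labels). The authors prepared stranded mRNA libraries, mapped them to hg19 (STAR 2.4.2a) and derived the deposited RPKM from Cufflinks 2.1.1, using GENCODE gene models. Read counts were not used here, so only the relative depth could be estimated, from the commonest ratio of low RPKM (under 0.15) to 1 library. Each library was divided by the median of its ratios to the geometric mean over the 9980 genes with at least 1 RPKM in all 8 libraries (factors 0.814 to 1.12). On log2(RPKM + 0.1), which understates changes of low genes, limma 3.58.1 in R 4.3.3 was fitted with a mean-variance trend, 4 groups (siCtrl or siOC2 at each oxygen level) plus the siRNA number within siOC2, 5 coefficients and 3 residual degrees of freedom. The p-values measure the spread between these libraries, which may be technical. Tests are 2-sided, and p-values were adjusted by Benjamini and Hochberg across the tested genes. An exact permutation test of 2 against 2 libraries cannot go below p = 0.333 and was not used. The fits were also run on data simulated with independent noise per gene and library. Such data hold no effect of library handling, so this run cannot tell how far handling shifts the results.

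The members and lists were chosen with earlier results of these data known. Named are the 12 genes in each direction with the largest difference among those called, above 0 in all 4 siOC2 libraries, over 2-fold the same way in both oxygen pairs, at a mean of at least 5 RPKM with the higher siRNA and with each pair difference above those of the siCtrl duplicates. Named too are the 17 genes of the list around ONECUT2, SMAD3 and HIF, up to 4 called genes of each other list and 3 genes in each direction of the oxygen comparison. Other called list genes are mentioned without values. The 3′UTRs are those of canonical GENCODE transcripts on GRCh37, which need not be the ends used in PC3 cells, and that analysis was added after the data were seen. Genes with close paralogs, pseudogenes or overlaps carry the uncertainty of the authors' counting. The LNCaP and ChIP-Seq samples were not used here. Python 3.11.15 with pandas 2.3.3 was used.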

Additional observations from a re-analysis of the deposited data

Results flagged for a closer look

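The difference between siRNAs differed between hypoxia and normoxia in 1072 genes by fold and unadjusted p, of which 5 passed an adjusted p under 0.05 in limma. Among the called genes above 0 in all 8 libraries, the ones with the largest shift of the log2 difference (hypoxia minus normoxia) were HAGHL (10.14), RERG (5.56) and RP11-302B13.5 (5.39) in one direction, and AL109927.1 (-9.29), AC024592.12 (-8.65) and MDP1 (-7.71) in the other. AC024592.12 was at 0.0230 RPKM and AL109927.1 at 6.34e-05 in the siRNA1 library in hypoxia, beside 30.9 to 31.1 and 18.3 to 31.2 in the siCtrl libraries in hypoxia. Their siCtrl duplicates in normoxia were at 14.2 and 57.8, and at 36.3 and 45.4. MDP1 in the siRNA1 library in hypoxia and RP11-302B13.5 in the siRNA1 library in normoxia were near 0. The hypoxic pair of AC024592.12 alone gave a log2 difference of -8.53. The siRNA1 library in hypoxia had the lowest relative depth (0.349), whose part in these values was not tested.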

How the results depend on the processing

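Each siRNA has 1 library per oxygen level and low genes have few reads, which limits what single low genes show. The counts of genes higher with siRNA1 and with siRNA2 were 800 and 1281. On RPKM as deposited the first was 526. With a pseudocount of 1 the second was 738 and with a minimum of 5 RPKM in 2 libraries it was 673. Leaving out each library in turn gave 749 to 1106 and 1045 to 1724. For the dependence on oxygen (458 larger and 614 smaller), adjusted p gave 2 and 3, the deposited scale 156 and 1913, the minimum of 5 RPKM 284 and 377 and the pseudocount of 1 gave 358 smaller. Leaving out a siCtrl library gave 441 to 498 and 587 to 670, and this comparison cannot be fitted without a siOC2 library. For siRNA1 against siCtrl (645 above, 923 below) the pseudocount of 1 gave 416 and 553, the minimum of 5 RPKM 405 and 605, and the range without 1 library was 556 to 1011 and 749 to 1433, highest without the siRNA1 library in normoxia. For siRNA2 (872 above, 661 below) the pseudocount of 1 gave 466 above, no filter 1366 above and the minimum of 5 RPKM 429 above, and the range without 1 library was 846 to 1067 and 652 to 905. The cause of these shifts was not tested, save that the stricter filter tests fewer genes (8696).

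The replicate numbers do not pair the libraries by the labels. The deviations of same-numbered libraries had an r of -0.10 in normoxia, -0.0055 in hypoxia and -0.18 between the siCtrl groups. With the replicate number as a block, 794 and 1108 genes were called, and 1563 of 2081 calls were shared. Those with an adjusted p under 0.05 fell from 1896 to 846 in all, and to 843 with the siCtrl numbers in normoxia crossed. With the siCtrl numbers in normoxia crossed, an alternative added after the data were seen, the block gave 796 and 1123. Of 108 named genes called between siRNAs, 88 stayed called with the block, 101 on the deposited scale, 92 with a pseudocount of 1, 102 with depth as a covariate and 89 without the siRNA1 library in hypoxia. The 1 reversal was AC024592.12, at 0.12 without either siOC2 library in hypoxia and -8.53 without either in normoxia, against -4.20. Of 32 list medians, 8 had the other sign on the deposited scale, among them S phase, keratins, p53 targets and ribosomal proteins, and 3 with upper-quartile scaling. The medians of interferon-stimulated genes, HIF targets, glycolysis, TGF-β, stress response and chaperone genes had 1 sign in all alternatives.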
